A study of Homo sapiens with 6 samples.

Results

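The autophagy machinery examined here comprised 36 genes chosen by name, from the kinase complex that starts autophagy to the receptors that deliver its cargo, out of 34644 gene names in the tables. Each was found in the tables, and each was among the 15053 genes with enough reads to be tested. The libraries came from HPC, a human podocyte line labelled WT. Podocytes are epithelial cells whose foot processes cover the glomerular capillaries and form part of the kidney's filter. High glucose was applied to all 6 samples, of which 3 received a negative control (NC) lentivirus and 3 a lentivirus that overexpresses PRDM16, a zinc finger transcription factor, for 24 h. The labels do not name the transgene's promoter, the viral dose or the glucose concentration. No normal glucose sample was analysed here, so each comparison is of PRDM16 with NC within high glucose. Whether replicates are separate cultures is not stated either, and the p-values below therefore measure only a spread between samples that may be technical.

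Autophagy is the process by which a cell encloses part of its cytoplasm in a double membrane, the autophagosome, and delivers it to the lysosome for breakdown. The ULK kinase complex starts it, a lipid kinase complex around PIK3C3 marks the site with the lipid PI3P, and WIPI proteins, lipid transfer proteins of the ATG2 family and the scramblase ATG9A build the membrane. A pair of ubiquitin-like reactions then attaches proteins of the Atg8 family (LC3 and GABARAP) to it, and receptors such as p62 bind these proteins and cargo together. The podocyte is a cell that does not divide and is known for a high basal rate of autophagy.

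The libraries held between 20147135 and 41280350 counts. PRDM16 itself had 0 counts in each NC library and 11, 18 and 24 counts in the PRDM16 libraries. Pooled over the group, this was 0.598 CPM (counts per 1000000, scaled by library), at least 14.5-fold higher than the 3 counts taken as the floor for the pooled NC group (edgeR adjusted p = 1.32e-04, and 1.2e-08 to 0.23 over the alternatives, of which only removing a length and GC trend together with a replicate block took it past 0.05). The profile was only in part that of a mature podocyte: 4 of 10 podocyte markers, NPHS1, WT1, TCF21 and PTPRO, stayed under 1 CPM in every library. PODXL was at 117 ± 7.87 CPM, SYNPO at 29.4 ± 2.21, FOXC2 at 19.2 ± 2.70, MAGI2 at 1.92 ± 0.247 and PLA2R1 at 1.85 ± 0.383 (SD, n = 6). Of 5 parietal cell markers, CLDN1 was at 550 ± 34.3 CPM, PAX8 at 243 ± 21.9, CD24 at 133 ± 25.8 and PAX2 at 32.6 ± 2.42. The remaining parietal marker, PROM1, stayed under 1 CPM in every library. Summed tubule markers (7 genes, with LRP2, UMOD and SLC12A1 at 0) were between 1.68 and 2.59 CPM and endothelial markers (5 genes, with KDR at 0) between 2.92 and 3.63 CPM over the libraries. Some marker sums moved with the groups. The 10 podocyte markers summed to 348 to 426 CPM with NC and 313 to 340.0 with PRDM16, and without CD2AP, the most abundant of them, left out after the values were seen, to 164 to 182 and 162 to 175, which overlap. The 5 simple epithelial markers, mostly keratins, summed to 2817 to 3324 and 3334 to 3830.1, and the 5 immune markers, nearly all of it CD68, to 135 to 163 and 178 to 182. No gene of these lists passed, PTPRC, CD3E and CD79A stayed under 1 CPM, and the part of such differences in the results below was not tested. In bulk RNA, fewer cells with a transcript and less of it per cell cannot be told apart.

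The machinery was expressed throughout, and its transcripts spanned a wide range of levels. On the authors' TPM scale, which divides by gene length and so allows genes to be compared, the members ran from 2.55 to 703 TPM, with a median of 38.1. The median over all tested genes was 12.7 TPM, and 28 of the 36 members lay above it. GABARAP, an Atg8 protein that acts late in autophagosome maturation, stood at 703 ± 31.1 TPM (SD, n = 6). It was followed by MAP1LC3B, the LC3 protein used as the standard marker of autophagosomes, at 227 ± 22.1 TPM and by the mitophagy receptor BNIP3 at 207 ± 27.0 TPM. ATG101, a small subunit that stabilises the ULK complex, reached 177 ± 10.4 TPM, the Atg8 protein GABARAPL2 163 ± 7.39 TPM, and the receptors OPTN and SQSTM1 142 ± 24.6 and 118 ± 26.8 TPM. At the low end were ATG10, the enzyme that joins ATG12 to ATG5, at 2.55 ± 0.395 TPM, ATG16L1 at 2.90 ± 2.34 TPM and UVRAG at 6.11 ± 0.950 TPM. The counts of ATG16L1 and SQSTM1 fell mostly on scaffolds (99.5% and 89.8%), as taken up below, so the levels of these 2 genes are uncertain.

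The order of levels was firm only at its top. Of the 35 pairs of neighbours in that order, 1 had ranges over the 6 libraries that did not overlap, GABARAP above MAP1LC3B. Several genes of the early steps were low per length, although ATG2A, at 42.6 TPM, was not. RB1CC1, the large scaffold of the ULK complex, was at 10.1 ± 3.35 TPM, PIK3C3, the lipid kinase, at 10.5 ± 2.46 TPM and ATG2B, a bridge for lipid transfer, at 8.24 ± 1.94 TPM.

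**Figure D1:**
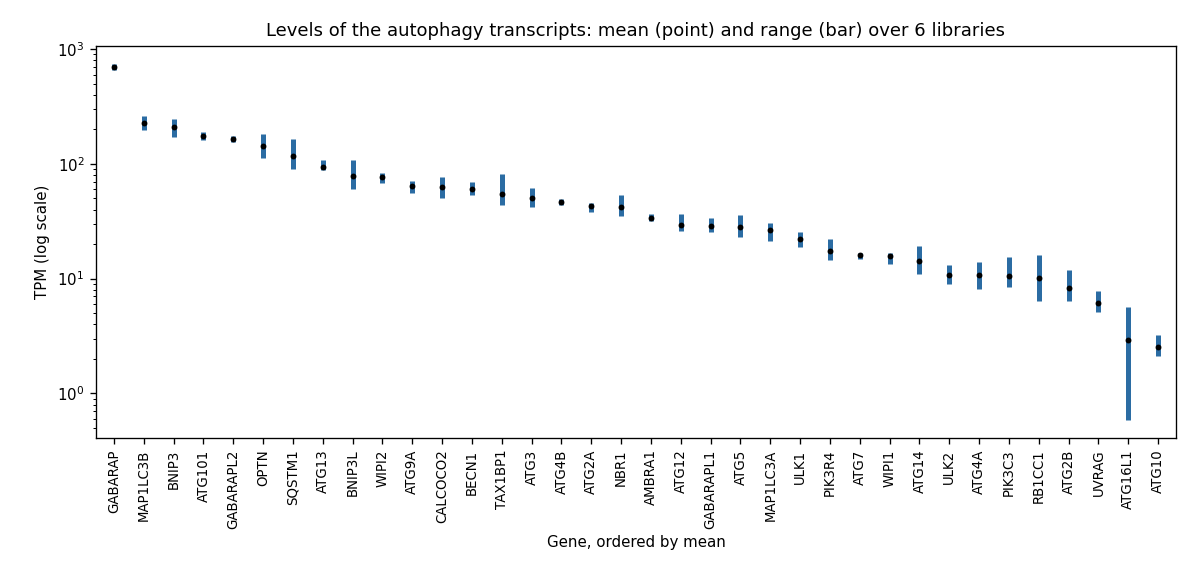
Deposited TPM of the 36 autophagy genes on a log scale, ordered by the mean over the 6 libraries, with the point for the mean and the bar for the lowest to the highest library. GABARAP, at a mean of 703 TPM, lies clear of MAP1LC3B at 227 TPM, and the bar of ATG16L1 is the longest.

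Short stretches of promoter are shown here because CACGTG is the core of the sites bound by TFEB and TFE3, the transcription factors of lysosomal and autophagy genes, and holds the letters of a hypoxia element. RefSeq promoter windows (GRCh38.p14, 250 bases before to 50 after the gene start) were matched for 32 members, and CACGTG, which reads the same on both strands, was found in 3 of them (9.38%), against 9.92% of the 11726 windows of tested genes. The longer form TCACGTGA, which contains it, was in 1 member window (3.12%) and in 1.87% of those of tested genes. RB1CC1, UVRAG, MAP1LC3A and BNIP3L had no match in the table. The sites are printed along the gene's strand with CACGTG in capitals. They lie at chr3:112561963-112561992 and chr3:112561940-112561969 for ATG3, chr14:55411834-55411863 for ATG14 and chr10:131982040-131982069 for BNIP3, all on the minus strand.
ATG3 upstream: cctttctcacgtCACGTGccgggagagtct
ATG3 at the start: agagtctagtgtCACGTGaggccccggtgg
ATG14: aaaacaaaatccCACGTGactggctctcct
BNIP3: gcgcacgcgccgCACGTGccacacgcaccc
The second ATG3 stretch holds the longer form. The log2 fold changes of ATG3, ATG14 and BNIP3 with PRDM16 were -0.10, -0.24 and 0.07, and none passed the test described next.

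No autophagy gene passed in the comparison of PRDM16 with NC. In edgeR's quasi-likelihood test, 0 of the 36 members reached an adjusted p under 0.05, against 18 of all 15053 genes tested (0.12%), and DESeq2 and limma-voom also called 0 members, against 0.246% and 0.0266% of all genes. At an unadjusted p under 0.05 there were 5 members (13.9%), 4 of them higher and 1 lower with PRDM16, where the share over all tested genes was 16.9% (9.8% higher, 7.08% lower). That count depended on single libraries: leaving out NC library 1 gave 13 members (27.5% of all genes), and leaving out NC library 2 gave 2 (7.55%). With PRDM16 library 1, 2 or 3 left out it was 2, 2 and 8 (7.67%, 8.97% and 19.9% of all genes). The groups did not overlap in 9 members (25.0%), 6 with PRDM16 above and 3 with it below, against 21.1% of all tested genes (12.4% above, 8.7% below). The members' shares thus lay near those of all genes. Their median log2 fold change was -0.07, with 15 values above 0 (41.7%) and 21 below, beside a median of -0.02 and 47.3% above 0 over all tested genes. With single libraries left out, the members' median ran from -0.02 (without NC library 2) to -0.11 (without PRDM16 library 2). Leaving out ATG16L1, whose counts are taken up below, the fold changes ran from -0.38 to 0.42, and the median standard error of the members was 0.12. The call of 0 members held in 13 of the 14 alternative analyses, and without NC library 3 RB1CC1 passed.

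**Figure D2:**
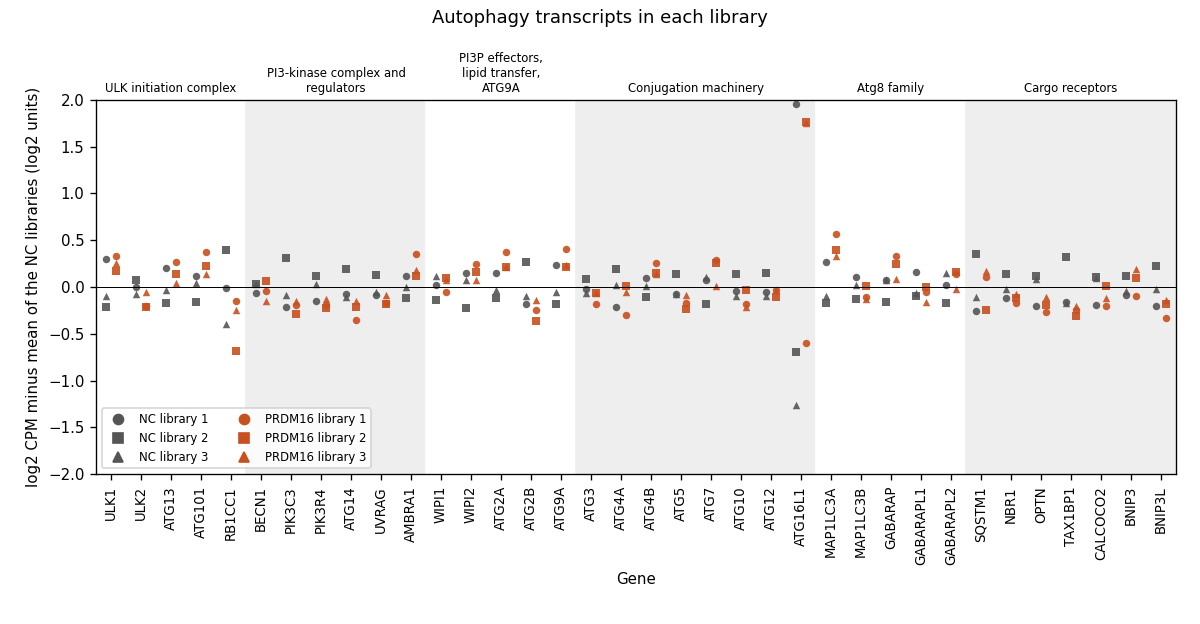
Log2 CPM of each autophagy gene in each library minus the mean of its 3 NC libraries, with grey symbols for NC, orange for PRDM16, and shape for the library number. The symbols of both groups are mixed for most genes, NC library 2 (grey squares) is often at the edge, and ATG16L1 spreads the most.

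Among the 5 genes of the ULK initiation complex, values lay on both sides of 0 (3 above, 2 below), and none passed. Their median log2 fold change was 0.14, and -0.0022 once a trend with transcript length and GC content, described below, was removed from each library. ATG101 (chromosome 12, 52069923 to 52077495) had 93.4, 77.3 and 88.7 CPM in NC libraries 1 to 3 and 112, 100.5 and 94.8 CPM in the PRDM16 libraries. All 3 PRDM16 libraries were above all 3 NC libraries, by a narrow margin (log2 fold change 0.24 ± 0.12 SE, edgeR adjusted p = 0.293), but with the trend removed the value was -0.0022. ULK1, the kinase that phosphorylates the later components, had 48.8, 34.3 and 37.1 CPM with NC and 49.9, 44.5 and 47.3 with PRDM16. NC library 1 overlapped the PRDM16 libraries, and the log2 fold change was 0.24 ± 0.13 (edgeR adjusted p = 0.323), or 0.03 with the trend removed. Its relative ULK2 was at -0.16 and the adaptor ATG13 at 0.14 on the same scale.

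RB1CC1, also known as FIP200, had the lowest fold change of all members and also a wide spread. It was at 45.6, 60.2 and 34.9 CPM with NC and at 41.4, 28.4 and 38.6 with PRDM16, so that the groups overlapped (log2 fold change -0.38 ± 0.21, edgeR adjusted p = 0.349). Its value hung on single NC libraries: it was -0.55 without NC library 3, where it passed (edgeR adjusted p = 0.0352, with 0.952% of all genes called). Without NC library 2 it was -0.15. With the trend removed it was -0.12 (edgeR adjusted p = 0.863).

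In the lipid kinase complex and its regulators, 5 of 6 genes had values below 0, with a median log2 fold change of -0.16, and none passed. With the trend removed, 3 of the 6 were above 0 (PIK3C3 at 0.04, UVRAG at 0.02 and AMBRA1 at 0.19) and the median was -0.0089. ATG14, the subunit that directs the kinase to autophagy, had 25.4, 30.4 and 24.7 CPM with NC and 21.0, 23.0 and 24.1 with PRDM16. Its groups did not overlap, with less than 1 CPM between the nearest libraries (-0.24 ± 0.13, edgeR adjusted p = 0.314). BECN1, the core regulator of the kinase and the most abundant of these transcripts per length (60.2 TPM), was at 48.2, 51.5 and 51.3 CPM with NC and at 48.7, 52.5 and 45.5 with PRDM16. Here the libraries were fully mixed (-0.04 ± 0.12, edgeR adjusted p = 0.858). The kinase PIK3C3, its partner PIK3R4 and the ATG14 alternative UVRAG were at -0.23, -0.19 and -0.14.

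AMBRA1, a scaffold that links the kinase complex to ubiquitin ligases, was the one above 0 before the trend was removed. It had 87.0, 74.0 and 80.4 CPM with NC and 102, 87.2 and 91.0 with PRDM16, with NC library 1 just under PRDM16 library 2 (log2 fold change 0.22 ± 0.12 SE, edgeR adjusted p = 0.320).

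The 5 genes that act on the growing membrane included a pair of relatives with opposite values. ATG2A (chromosome 11, 64894546 to 64917241) had 101, 83.5 and 88.7 CPM with NC and 118, 105 and 105 with PRDM16, so the groups did not overlap (log2 fold change 0.27 ± 0.12 SE, edgeR adjusted p = 0.271). ATG2B, which encodes the other lipid transfer protein of the family, had 37.4, 51.2 and 39.8 CPM with NC and 35.8, 32.9 and 38.6 with PRDM16 (-0.26 ± 0.13, edgeR adjusted p = 0.301). Neither passed. The transcripts differ in base composition, with 63.9% GC for ATG2A and 40.0% for ATG2B, and with the trend described below removed the values were 0.09 and 0.01.

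ATG9A, the scramblase carried on vesicles that seed the membrane, had 93.2, 69.9 and 76.4 CPM with NC and 105, 92.2 and 93.2 with PRDM16. NC library 1 lay within the PRDM16 range (0.28 ± 0.12, edgeR adjusted p = 0.271). WIPI2, the PI3P reader that recruits the conjugation machinery, was at 143, 110.3 and 135 CPM with NC and at 152, 144 and 136 with PRDM16 (0.15 ± 0.12, edgeR adjusted p = 0.463), and WIPI1 was at 0.04. NC library 2 was the lowest of the 6 libraries for ATG2A, ATG9A, WIPI1 and WIPI2 and the highest for ATG2B.

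Of the 8 genes of the conjugation machinery, 3 had values above 0 and 5 below, and the lowest edgeR adjusted p was 0.374. Their median was -0.08, and 0.07 with the trend removed, when 5 of the 8 were above 0. It belonged to ATG4B, the protease that trims and releases Atg8 proteins, with 78.5, 68.7 and 74.2 CPM with NC and 88.1, 81.7 and 81.4 with PRDM16. The groups did not overlap (log2 fold change 0.18 ± 0.11 SE). ATG7, the activating enzyme of both conjugation reactions, had 54.7, 45.7 and 56.1 CPM with NC and 63.6, 62.0 and 52.4 with PRDM16, with PRDM16 library 3 among the NC libraries (0.18 ± 0.12, edgeR adjusted p = 0.396). It was the member furthest from 0, ATG16L1 apart, with the trend removed (0.31, edgeR adjusted p = 0.710).

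ATG3, the enzyme that attaches Atg8 proteins to lipid, was the most abundant of these genes per length (50.8 TPM). It had 57.4, 62.2 and 55.9 CPM with NC and 51.6, 55.8 and 56.0 with PRDM16 (-0.10 ± 0.12, edgeR adjusted p = 0.620). ATG5, ATG12 and ATG10, which form or make the conjugate of ATG12 and ATG5, were at -0.17, -0.06 and -0.15, and the protease ATG4A at -0.12. The groups of ATG5 did not overlap, with NC between 35.8 and 41.6 CPM and PRDM16 between 32.0 and 35.5.

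ATG16L1, which places the conjugate on the membrane, had the largest fold change and by far the largest error. The tables list it at 2 places, on chromosome 2 (233251647 to 233295674) and on an alternate scaffold. Over the 6 libraries, 3 counts fell on the chromosome and 625 on the scaffold (99.5%). Summed over both places, it had 6.72, 1.07 and 0.719 CPM with NC and 1.14, 5.86 and 5.84 with PRDM16. The libraries fell into a high set and a low set that cut across the groups, and the log2 fold change of 0.64 ± 1.12 did not pass (edgeR adjusted p = 0.780). Leaving out NC library 1, 2 or 3 gave 2.25, 0.24 and 0.20, leaving out PRDM16 library 1, 2 or 3 gave 1.05, 0.38 and 0.36, limma-voom gave 1.15, and it passed in none of these. The sources used here do not say what the counter did with reads that fit both places, so these counts may hold only part of the gene's reads.

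The Atg8 family gave the member with the smallest p. MAP1LC3A (chromosome 20, 34546823 to 34560345), the LC3 protein of lower abundance, had 13.1, 9.65 and 10.2 CPM with NC and 16.1, 14.3 and 13.6 with PRDM16. All PRDM16 libraries were above the NC libraries, yet the gene did not pass over all genes (log2 fold change 0.42 ± 0.15 SE, unadjusted p = 0.00648, edgeR adjusted p = 0.235). Its transcripts are rich in GC (64.8%), and with the trend removed its log2 fold change was 0.08.

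GABARAP (chromosome 17, 7240008 to 7242449) had 331, 282 and 332.5 CPM with NC and 396, 372 and 332.7 with PRDM16. PRDM16 library 3 was almost level with NC library 3, so the groups barely missed overlapping (log2 fold change 0.22 ± 0.12 SE, edgeR adjusted p = 0.328). MAP1LC3B (chromosome 16, 87392336 to 87404774) had 196, 166 and 185 CPM with NC and 169, 183 and 166 with PRDM16, with the groups mixed (-0.08 ± 0.12, edgeR adjusted p = 0.725). Its count may share reads with the near-identical MAP1LC3B2. Summed, the pair reached 186 ± 14.8 CPM in the NC libraries and 176 ± 9.24 in the PRDM16 libraries (SD, n = 3). GABARAPL1 and GABARAPL2 were at -0.07 and 0.09.

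The make-up of the family could be followed in each library. In share of the summed Atg8 TPM, GABARAP took 59.3%, 59.4% and 60.0% in the NC libraries and 64.5%, 62.2% and 62.0% in the PRDM16 libraries. MAP1LC3B took 21.6%, 21.5% and 20.5% with NC and 17.0%, 18.8% and 19.0% with PRDM16. The ratio of GABARAP to MAP1LC3B was 2.81 ± 0.0988 with NC and 3.46 ± 0.302 with PRDM16 (SD, n = 3). The groups did not overlap in either share or in the ratio. They were also apart in the shares of MAP1LC3A (1.85% to 2.36% with NC, 2.41% to 2.64% with PRDM16) and GABARAPL1 (2.43% to 2.82% and 2.22% to 2.36%). Those of GABARAPL2 overlapped. Shares within a library depend on each other, so these are not separate observations. For the ratio the exact permutation test, two-sided, gave p = 0.1, which is as low as 3 libraries against 3 allow. Groups of 3 that do not overlap always give that value, and the ratio was singled out after its values were seen. The p therefore adds nothing to the lack of overlap. The difference was 0.29 on the log2 scale, and 0.24 with the trend removed. These 2 genes are alike in base composition (51.2% and 50.4% GC) but differ in listed length (1319 and 2147 bases). The part of library composition in the ratio was not tested. The summed family level was 1150 ± 52.5 TPM with NC and 1147 ± 16.4 with PRDM16.

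**Figure D3:**
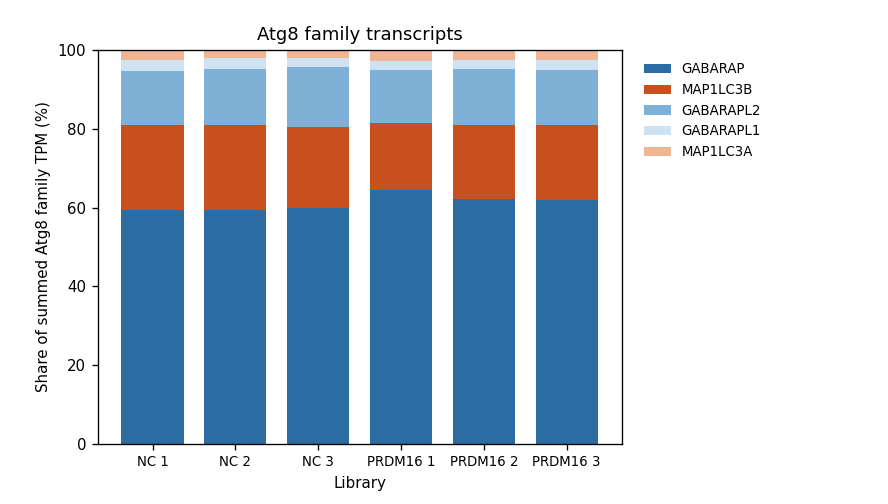
Share of each of the 5 Atg8 family transcripts in their summed TPM, by library, with bars stacked from 0 to 100%. GABARAP takes 59.3% to 60.0% in the NC libraries and 62.0% to 64.5% in the PRDM16 libraries, and MAP1LC3B takes correspondingly less.

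Of the 7 cargo receptors, 6 had values below 0 (median log2 fold change -0.13, and -0.11 with the trend removed), and none passed. TAX1BP1 (chromosome 7, 27739373 to 27829767), a receptor for ubiquitinated cargo and protein aggregates, had 68.9, 96.4 and 68.4 CPM with NC and 64.8, 62.1 and 66.6 with PRDM16. The groups did not overlap, with NC library 2 far above the rest (-0.27 ± 0.13, edgeR adjusted p = 0.281, and -0.08 without that library). BNIP3L, the mitophagy receptor also called NIX, had 93.8, 126 and 107 CPM with NC and 86.3, 95.6 and 98.1 with PRDM16, again with NC library 2 the highest (-0.22 ± 0.12, edgeR adjusted p = 0.319). The ubiquitin-binding receptors NBR1, OPTN and CALCOCO2 were at -0.13, -0.19 and -0.10.

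BNIP3 (chromosome 10, 131967684 to 131981923), the relative of BNIP3L and a textbook target of hypoxia signalling, had 107, 124 and 111 CPM with NC and 107, 121 and 130.0 with PRDM16. Its groups overlapped (log2 fold change 0.07 ± 0.12 SE, edgeR adjusted p = 0.755).

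SQSTM1, encoding p62, the receptor that is itself degraded by autophagy, had a log2 fold change of -0.0035 ± 0.15 (edgeR adjusted p = 0.992). It was at 115, 176 and 128 CPM with NC and at 148, 116 and 155 with PRDM16, a spread that covered both groups. SQSTM1 is also listed at 2 places, with 10.2% of its counts on chromosome 5 (179806393 to 179838078) and 89.8% on a scaffold. In the NC libraries the scaffold listing had 2307, 4777 and 2424 counts and the chromosome listing 335, 352 and 243. In the PRDM16 libraries they had 2533, 2797 and 5781, and 309, 420 and 681. As with ATG16L1, the handling of reads that fit both places is not known, so these counts may hold only part of the gene's reads. On the chromosome alone the log2 fold change was 0.30, and over both places without NC library 2 it was 0.21. With the trend removed it was -0.22, the lowest of all members in that fit, and -0.18 with a replicate block as well. None of these passed in edgeR (adjusted p = 0.300, 0.727, 0.876 and 0.947).

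**Figure D4:**
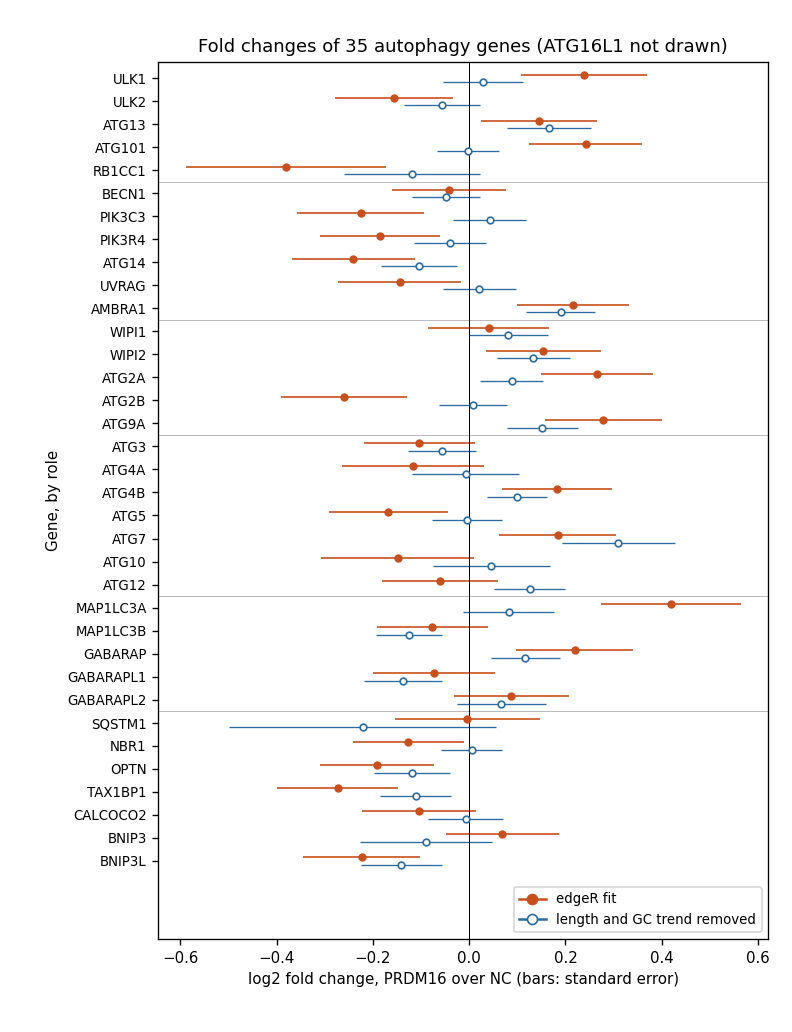
Log2 fold change of 35 autophagy genes with PRDM16 over NC, with bars for the standard error, as fitted (filled) and with the length and GC trend removed (open), and lines between the roles. Filled points run from -0.38 for RB1CC1 to 0.42 for MAP1LC3A, and most open points lie nearer to 0.

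The direction of a member's fold change ran along the base composition of its transcripts. Across the 36 members, Spearman's rho between log2 fold change and GC content was 0.797, given as a description because all points share the same 6 libraries. Over the 13575 tested genes with a GC value it was 0.650. Of the 18 members lowest in GC (38.5% to 47.9%), 17 had values below 0 (median -0.16), and of the 18 highest in GC (48.0% to 65.3%), 14 had values above 0 (median 0.18). NC library 2 moved with this pattern: its median log2 deviation from the mean of the 6 libraries was 0.21 over the first set and -0.25 over the second. PRDM16 libraries 1, 2 and 3 moved the other way, at -0.11, -0.08 and -0.03 over the first set and 0.18, 0.07 and 0.05 over the second. NC library 1 was at -0.04 and 0.03, and NC library 3 at 0.03 and -0.08. NC library 2 was the library farthest from the median in 28 of the 36 members, against 50.1% of all tested genes. Without that library rho was 0.666 over the members, and with a length and GC trend removed from each library it was 0.226. The medians of the 2 sets were then -0.01 and 0.09, and the median of all members 0.01. In that fit 0 members passed (0.0332% of all genes) and 2, AMBRA1 and ATG7, had an unadjusted p under 0.05 (6.8% of all genes). The part of library composition in each single value was not tested.

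**Figure D5:**
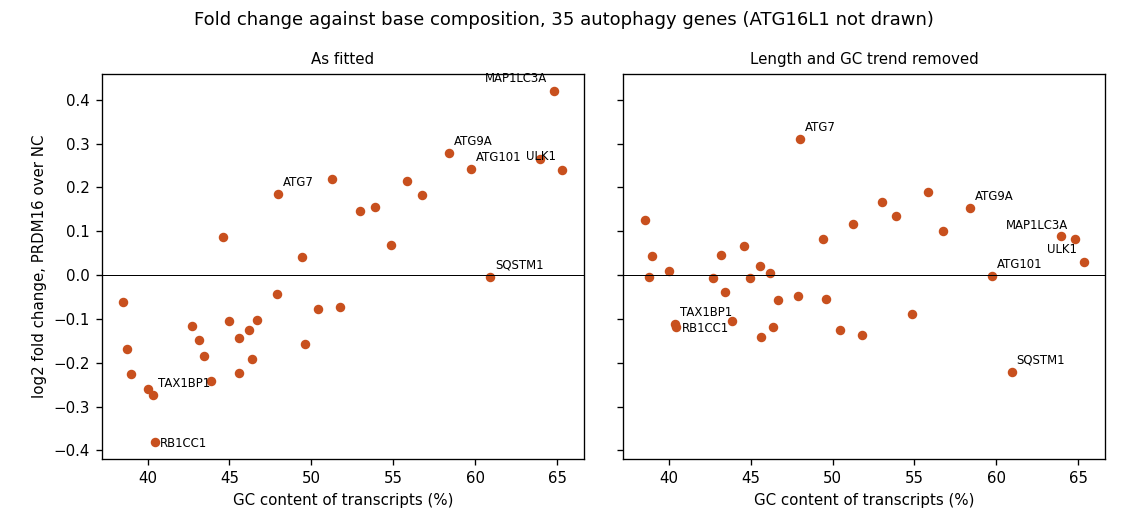
Log2 fold change of 35 autophagy genes with PRDM16 over NC against the GC content of their transcripts in percent, as fitted (left) and with the length and GC trend removed (right). On the left the points climb from RB1CC1 at -0.38 to MAP1LC3A at 0.42, and on the right ATG7 is highest at 0.31.

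Other genes of the pathway, 122 in 7 lists of which 117 could be tested, also had 0 passing in edgeR, DESeq2 or limma-voom. At an unadjusted p under 0.05 there were 17 (12 higher, 5 lower), against the 16.9% of all genes. With the trend removed there were 5, against 6.8% of all genes, and 3 of them were hypoxia genes that were not among the 17. Before that removal, further core genes (14 tested) had 2. ATG4D, a protease like ATG4B, was at 32.0 ± 4.66 CPM in the NC group against 40.4 ± 5.56 CPM under PRDM16 (means ± SD of 3; log2 fold change 0.33 ± 0.13 SE; adjusted p = 0.265 in edgeR). MAP1LC3B2 had 3.58 ± 0.228 and 2.56 ± 0.241 CPM (-0.47 ± 0.19, edgeR adjusted p = 0.265), and its groups did not overlap. With the trend removed ATG4D was at 0.03 and MAP1LC3B2 at -0.60, further from 0 than as fitted. MAP1LC3B2 did not pass there either (edgeR adjusted p = 0.705). The 17 genes of fusion with the lysosome had 0, with VPS41 of the tethering complex HOPS at -0.24 and the lysosomal channel TMEM175 at 0.26.

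Further receptors (18 tested) had 8, 6 higher and 2 lower, where all genes had 16.9%, and a median log2 fold change of -0.04. After removal of the trend 1 of the 18 was under that p, where all genes had 6.8%. The smallest p values belonged to TEX264, a receptor for the endoplasmic reticulum, at 60.6 ± 6.75 CPM in the NC group against 74.3 ± 6.78 under PRDM16 (means ± SD of 3), and the mitochondrial receptor PHB2, with 259 ± 28.7 and 317 ± 20.8 CPM. Both had log2 fold changes of 0.29, which became 0.08 with the trend removed. The 1 gene under that p in the trend-removed fit was PINK1, named after its values were seen. Its log2 fold change was 0.26 as fitted and 0.19 with the trend removed, and its groups did not overlap. It passed in neither fit (edgeR adjusted p = 0.271 and 0.705).

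Upstream regulators gave no call either. The kinase complex mTORC1 senses nutrients and holds autophagy in check. A list of 21 genes held mTORC1, its lysosomal anchors and its regulators, which include inhibitors of the complex such as TSC1, TSC2 and DEPTOR. Of these, 4 had an unadjusted p under 0.05, all higher, with a list median of 0.18. Over all tested genes that share was 16.9%, with 9.8% higher. With the trend removed 0 of the 21 were under that p, where all genes had 6.8%, and the median was 0.06. MLST8, a subunit of the complex, averaged 58.1 ± 7.94 CPM in the NC group against 75.4 ± 10.4 under PRDM16 (± SD of 3; log2 fold change 0.37 ± 0.13 SE; adjusted p = 0.228 in edgeR), and LAMTOR4, part of the anchor, 59.9 ± 5.05 and 75.9 ± 12.1 CPM (0.34 ± 0.12). Of 16 genes of the energy sensor AMPK and stress regulators, 2 had an unadjusted p under 0.05, where all genes had 16.9%. They were the catalytic subunit PRKAA2, with 46.4 ± 10.02 and 35.6 ± 4.85 CPM (-0.38 ± 0.14), and the AMPK kinase STK11, with 152 ± 26.8 and 184 ± 17.8 CPM (0.28 ± 0.13). With the trend removed the log2 fold changes of PRKAA2 and STK11 were -0.07 and 0.06. In that fit 0 of the 16 were under that p, where all genes had 6.8%.

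Among 13 transcription factors that act on autophagy genes 1 had an unadjusted p under 0.05, where all genes had 16.9%. It was FOXO3, averaging 63.4 ± 7.61 CPM in the NC group against 53.0 ± 0.790 under PRDM16 (± SD of 3; log2 fold change -0.26 ± 0.12 SE; adjusted p = 0.278 in edgeR). With the trend removed FOXO3 was at -0.12, and 0 of the 13 were under that p, where all genes had 6.8%. TFE3, a factor that binds the CACGTG core shown above, was at 179 ± 24.3 and 210 ± 13.3 CPM (0.23 ± 0.12). The 18 tested hypoxia genes, the textbook company of BNIP3, had 0, with the oxygen sensor EGLN3 at 0.42 ± 0.22 and the glucose transporter SLC2A1 at 0.22 ± 0.12. With the trend removed 3 of the 18 were under that p, where all genes had 6.8%. They were the growth factor VEGFA at -0.23, the glycolytic enzyme PGK1 at 0.35 and EGLN3 at 0.42, chosen after their values were seen. None passed (edgeR adjusted p = 0.705, 0.705 and 0.727).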

How the data were processed

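RNA was measured in 6 libraries of HPC cells, grouped by their titles. Per the labels' protocols, polyadenylated RNA was pulled from Trizol extracts with oligo(dT) beads and copied from random hexamers. The authors deposited for each library raw counts, TPM and FPKM per gene, per the file headers. The submitters' processing notes name the build hg38. Which aligner, counter and strand setting were used is not given in the sources used here. Deposited TPM values summed to 1000000 per library, and the deposited FPKM values were used only to check that the lines of 7 genes, broken in the files, were mended rightly. Listings that share a gene name were summed (38648 listings, 34644 names).

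Genes were tested with edgeR 4.0.16 (R 4.3.3), using TMM factors, its default filter (minimum count 10, minimum total 15), robust quasi-likelihood and Benjamini-Hochberg adjustment over 15053 genes. Standard errors are the log2 fold change over the root of F, and CPM values are scaled by TMM. DESeq2 1.42.0 and limma 3.58.1 were alternatives. GC content is the median over GENCODE transcripts and was found for 90.2% of tested genes. The trend was removed by regressing each library's log2 CPM deviation on splines (5 degrees of freedom each) of length and GC content. On simulated data with 14885 genes, edgeR recovered 41.8% of 1.5-fold, 82.1% of 2-fold and 95.5% of 4-fold changes, and called 9 unchanged genes. The simulated counts were drawn gene by gene without the length and GC trend, so these rates need not hold for the real libraries. No pair of libraries in a group lay within sampling noise (chi-square per degree of freedom 11.5 to 35.0).

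The members and lists were chosen with earlier results of these data known. Values in every library are given for members that passed and, in each role, for the 2 with the smallest p and the one highest in TPM, and group values or fold changes for the 2 with the smallest p in each further list. RB1CC1, ATG2B, ATG16L1, SQSTM1 and MAP1LC3B were added after their values were seen, as were PINK1, VEGFA and PGK1 in the further lists. Exons of BECN1, SQSTM1, WIPI1, ATG7 and BNIP3 overlap those of genes on the other strand by 35.3%, 18.7%, 18.5%, 17.0% and 16.7% of their bases, so these counts are uncertain. Some items, markers among them, are not reported here. Counting error alone is covered by the floor of 3 counts.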

Additional observations from a re-analysis of the deposited data

How the results depend on the processing

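The count of 18 genes passing in edgeR was 37 with DESeq2, 4 with limma-voom, 11 with DESeq2 size factors, 114 with no filter on low counts, 10 with listings kept separate, 5 with the length and GC trend removed and 13 to 148 when single libraries were left out. The 0 members passing became 0 to 1 when libraries were left out (RB1CC1 without NC library 3) and stayed 0 otherwise, as did the 0 genes of the further lists in all 14 alternatives. Members with an unadjusted p under 0.05 numbered 3 with limma-voom, 2 with the trend removed and 2 to 13 without single libraries. The members' median log2 fold change was 0.0068 with the trend removed, and the cause was not tested. PRDM16 missed the threshold only with the block and the trend removed (adjusted p = 0.23).

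The labels do not say whether same-numbered libraries share a culture, so the numbers were not taken as pairs. Deviations of same-numbered libraries were weakly correlated (r = 0.119, -0.124 and -0.153 for numbers 1, 2 and 3). With no values for different numbers beside them, these do not settle whether cultures were shared. With the replicate block 22 genes and 0 members passed, 4 members had an unadjusted p under 0.05 and the median was -0.06. With the replicate block and the trend removed these were 5, 0, 2 and 0.0068.

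Of 503 member values under alternatives 24 changed sign, in 11 members, none of which passed. With the trend removed they were ATG101 (-0.0022), PIK3C3 (0.042), UVRAG (0.022), ATG2B (0.0086), ATG10 (0.046), ATG12 (0.13), NBR1 (0.0050) and BNIP3 (-0.090), and with the block as well -0.0024, 0.043, 0.022, 0.0084, 0.047, 0.13, 0.0053 and -0.088. SQSTM1 was 0.0089 with limma-voom, 0.011 with the replicate block and 0.30 with its chromosome listing alone. Without single libraries SQSTM1 ran from -0.14 to 0.21 (above 0 without NC library 2 or PRDM16 library 2), WIPI1 from -0.019 (without NC library 2) to 0.0996, ATG12 from -0.11 to 0.025 (without NC library 2) and BECN1 from -0.10 to 0.0070 (without PRDM16 library 3). The chromosome listing of ATG16L1 alone had too few counts to be tested.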
